A study of Mus musculus with 2 samples.

Results

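Cells whose open chromatin was rich in the DNA patterns of proneural factors were picked out of the embryonic mouse retina. Each of 2 single-cell ATAC-seq libraries from wild-type (WT) E14.5 retina, embryonic and midway through gestation, was deposited as a table of 579 transcription factor motifs by cell barcode. A motif is the DNA pattern a factor recognises, and a count is the number of transposase cuts in accessible peaks that hold the pattern, so it measures accessibility and not binding. Nothing in the labels says whether the replicates came from separate animals, so the p-values below measure the spread between these 2 libraries.

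A cell was kept when its total over all motifs was at least 300000 and above the total of the same barcode in the other library. The share of a motif is its count divided by the total of the cell. N is the mean log2 share of NEUROD1, NEUROD2, Neurog1 and Atoh1, and P is the mean log2 share of POU4F1, POU4F2 and POU4F3. Cells chosen by these measured scores, in the top 15% of N and outside the top 25% of P of their library, are called proneural-high here. They were 98 of 890 kept cells (11.0%, 95% Wilson interval 9.12 to 13.2) in replicate 1 and 121 of 1051 (11.5%, 9.72 to 13.6) in replicate 2. In all they were 219 of 1941 kept cells and of 5455 barcodes. The cuts are quantiles of each library and largely fix these shares, so the intervals do not estimate how common a cell type is. The other kept cells fall into POU4F-high-only cells (187 and 226 in replicates 1 and 2), cells high for both scores (36 and 37) and cells high for neither (569 and 667).

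NEUROD, NEUROG and ATOH factors are basic helix-loop-helix (bHLH) activators that take retinal progenitors out of the cell cycle and towards neuronal fates. They bind the E-box, a short palindrome-like site written CANNTG, often as CAGATG. In the mouse retina Atoh7 is needed for ganglion cells, while Neurod1 acts in photoreceptor and amacrine development. POU4F factors act later, in ganglion cells that have left the cycle. The CRX and OTX homeodomain factors that specify photoreceptors bind TAATCC.

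Stretches before 3 gene starts show such sites, and the Neurod2 one shows how a single accessible window can feed several motifs. They are the 250 bases before the start in RefSeq (GRCm38.p6), 5′ to 3′ on the strand of the gene, with E-boxes (CANNTG) in capitals for Neurod2 and Atoh7, and TAATCC on either strand in capitals for Crx. The lines below give Neurod2 (chr11:98329646-98329895, minus strand), Atoh7 (chr10:63099535-63099784, plus strand) and Crx (chr7:15879956-15880205, minus strand).
Neurod2: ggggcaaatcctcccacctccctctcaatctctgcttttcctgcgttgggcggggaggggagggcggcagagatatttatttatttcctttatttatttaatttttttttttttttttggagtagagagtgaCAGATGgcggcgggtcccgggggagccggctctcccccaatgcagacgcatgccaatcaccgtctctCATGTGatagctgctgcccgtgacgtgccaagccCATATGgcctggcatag
Atoh7: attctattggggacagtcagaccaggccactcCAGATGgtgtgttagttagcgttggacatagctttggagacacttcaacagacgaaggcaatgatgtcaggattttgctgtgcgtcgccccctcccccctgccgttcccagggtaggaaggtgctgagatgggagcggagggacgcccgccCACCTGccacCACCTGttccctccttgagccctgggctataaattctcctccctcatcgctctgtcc
Crx: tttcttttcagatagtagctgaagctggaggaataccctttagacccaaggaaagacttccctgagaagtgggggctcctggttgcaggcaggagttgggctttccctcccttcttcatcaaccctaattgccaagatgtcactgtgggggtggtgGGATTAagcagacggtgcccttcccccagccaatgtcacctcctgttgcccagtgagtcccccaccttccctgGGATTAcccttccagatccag

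In the Neurod2 window the CAGATG that begins 118 bases before the start overlaps a TGACAG that begins at 121 bases, the core letters of the TGIF and PKNOX homeodomain factors. A cut in such a peak would count for both kinds of motif. The Atoh7 window held 3 E-boxes, of which 1 read CAGATG, and the Crx window held 2 copies of TAATCC, each on the strand opposite to the gene. Among 32817 RefSeq windows of 250 bases, CANNTG on either strand stood in 66.2%, CAGATG in 4744 windows, TGACAG in 15.9% and TAATCC in 6.25%. The joined letters TGACAGATG of the Neurod2 window, searched on either strand, stood in only 107 windows (0.326%), so this window illustrates the overlap and is not typical. CAGATG, which is itself a CANNTG, stood in 17.5% of windows with TGACAG and in 13.9% of those without, and in 15.7% of windows with TAATCC against 14.4% of those without. For GGAATG, the core letters of the TEAD motifs tested below, the shares were 16.1% and 14.2%. These letters are short textbook cores, and the pattern matrices and peaks behind the deposited counts were not used here.

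**Figure D1:**
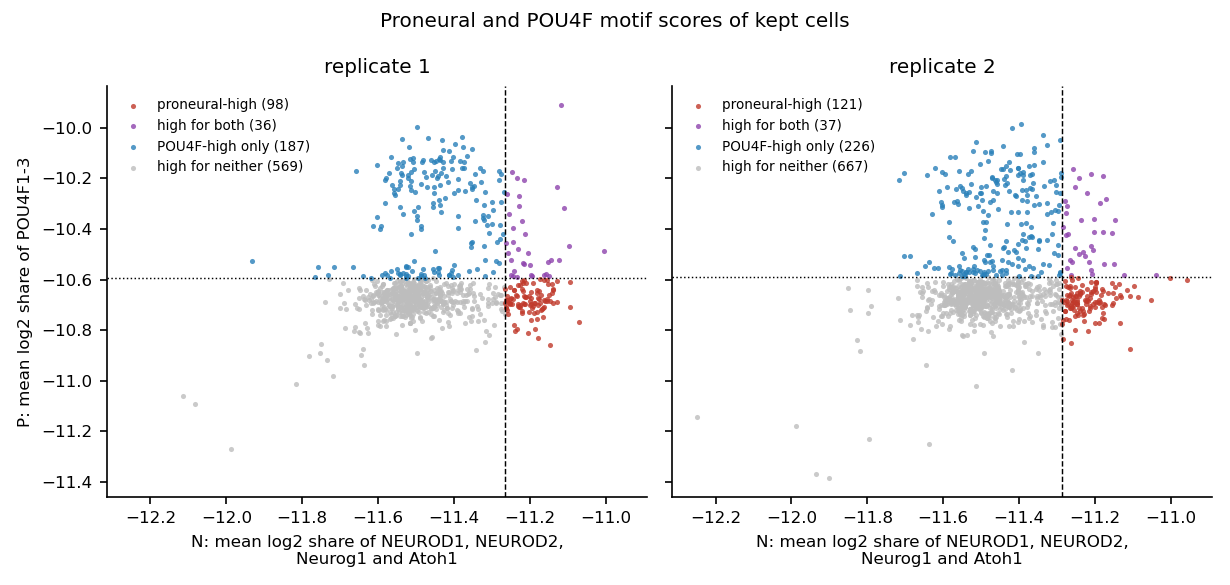
Score P (mean log2 share of the POU4F motifs, vertical axis) against score N (mean log2 share of the proneural motifs, horizontal axis) for every kept cell of replicates 1 and 2, 1 point per cell, with the cut on N dashed and the cut on P dotted. The 98 and 121 proneural-high cells lie right of the N cut and below the P cut, next to the dense body of cells rather than apart from it.

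The proneural-high cells formed the upper tail of one continuous cloud of N. Median N was -11.20 and -11.23 in proneural-high cells of replicates 1 and 2, against -11.50 and -11.49 in the other kept cells. The cut lay at -11.27 in replicate 1 and -11.29 in replicate 2, and to 2 decimals the innermost members and the nearest cells outside stood at the same values. Within 0.05 of that cut were 100 and 141 kept cells, of which 39 and 55 were proneural-high. The class is therefore a range of a score, without a gap at its border. N and P were nearly unrelated across kept cells, with a Pearson r of 0.16 and 0.15 between motifs that share the cell total.

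Depth differed little between the sets. The median total was 3235796 and 3492514 counts in proneural-high cells, against 3545708.5 and 3532737.5 in the other kept cells, a ratio of 0.913 in replicate 1 and 0.989 in replicate 2. Above 2 times the library median were 2 and 6 proneural-high cells (2.04% and 4.96%), against 36 and 50 others (4.55% and 5.38%), and no doublets were called. Of the barcodes, 1828 occur in both libraries, among them 96 of the 98 and 106 of the 121 proneural-high ones, where the copy in the other library was shallow. No barcode was chosen in both libraries.

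The values that chose the cells are given as a description. NEUROD1, a bHLH factor of photoreceptor and amacrine precursors, took 538 and 522 of every 1000000 motif counts (parts per 1000000, written ppm below) in proneural-high cells, against 436 and 424 in the other kept cells, a log2 difference of 0.30 in each library. NEUROD2, a relative of NEUROD1 best known in cortical neurons, took 319 and 315 ppm against 260 and 265. Neurog1, which in mouse drives cranial sensory neurogenesis, had 403 and 403 ppm against 334 and 342, and Atoh1, the hair cell and cerebellar granule cell factor, 472 and 466 against 405 and 404. Over both libraries these shares were larger by 23.4% for NEUROD1, 20.9% for NEUROD2, 19.6% for Neurog1 and 16.1% for Atoh1. The POU4F motifs, held down by the rule, were lower by 0.10, 0.085 and 0.080 on the log2 scale for POU4F1, POU4F2 and POU4F3.

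NEUROD1 did not follow the other 3 proneural motifs closely. Across kept cells NEUROD2 and Neurog1 had an r of 0.96 and 0.94 in replicates 1 and 2, and NEUROD2 and Atoh1 0.92 and 0.91. NEUROD1 and NEUROD2 had only 0.66 and 0.56. Among the proneural-high cells themselves that last r was -0.34 and -0.16, in a set where the cut on the mean of all 4 lets a high value of one stand in for a low value of another.

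Another 40 motifs resemble those of the rule in pattern or in counts and were likewise not tested. The 8 other proneural motifs had a median log2 difference of 0.15, and 7 of them were above 0. OLIG2 and BHLHE22, bHLH repressors of the OLIG family, were at 0.15 each. OLIG1 and OLIG3 have the counts of OLIG2 exactly, so these 3 are 1 measurement. NEUROG2, the proneural factor that acts with Atoh7 in the mouse retina, was at only 0.035, with 122 and 115 ppm against 118 and 114, and BHLHE23, a repressor related to the OLIG factors, was at -0.014. The other E-box motifs, a list of 16, had a median of 0.070.

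Outside the rule and the motifs linked to it, 532 motifs were tested between the proneural-high cells and all other kept cells. Photoreceptor homeodomain motifs were higher and the TEAD motifs of progenitors and the RFX motifs were lower. With edgeR's quasi-likelihood test on sums per library and cell set, 122 motifs (22.9%) were higher and 110 (20.7%) were lower at a Benjamini-Hochberg adjusted p under 0.05, together 43.6%. List counts against all other kept cells given below are to be read beside these shares. Without TMM scaling, the trimmed-mean factor that edgeR applies to each sum, 141 were higher and 175 lower. The differences were small: 17 motifs, 3.2% of those tested, reached 0.1 on the log2 scale, 13 above and 4 below, and the median over all tested motifs was 0.0014. All 232 called motifs had the same sign in the 2 libraries. The tested motifs come from the same cuts as the rule, and peaks that hold an E-box beside another pattern feed both. Their p-values say how alike the differences were in the 2 libraries and are no independent check of the choice of cells. Without the library as a term of the model the test called 1 motif higher and 3 lower, with 0 of the 24 motifs plotted by library called and 12 of them at an unadjusted p under 0.05.

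**Figure D2:**
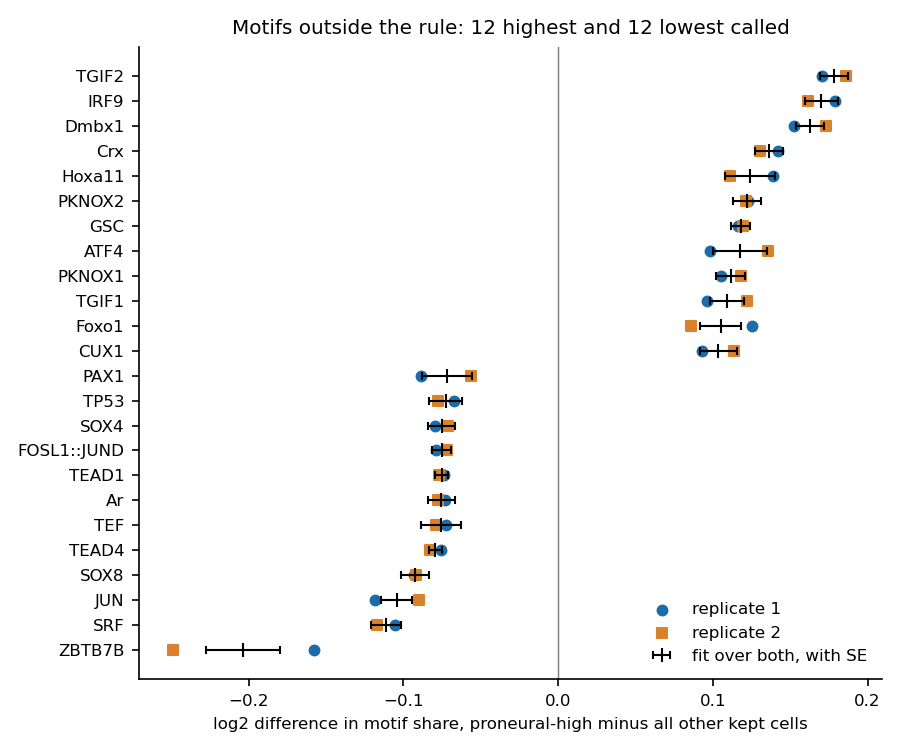
Log2 difference in motif share between proneural-high cells and all other kept cells (horizontal axis) for the 12 highest and 12 lowest called motifs of at least 50 counts per kept cell outside the rule, with circles for replicate 1, squares for replicate 2 and black bars for the fit over both with its standard error. A motif was plotted only if its sign was the same in both libraries, which held for all 232 called motifs. The values run from TGIF2 at 0.18 down to ZBTB7B at -0.20.

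CRX and OTX class motifs were higher throughout. All 8 motifs of this list were called higher, with a median of 0.074, against the 22.9% of all tested motifs called in that direction. Motifs of a list can draw on the same cuts, so these 8 calls are not 8 independent results. Crx, the photoreceptor homeodomain factor whose pattern is TAATCC, took 119 and 114 ppm in proneural-high cells, against 108 and 105 in the others. Its log2 difference was 0.14 ± 0.0089 (SE, adjusted p 0.0013, edgeR quasi-likelihood test), and 75.5% and 75.2% of proneural-high cells exceeded the median of the others. OTX2, which acts upstream of Crx in mouse photoreceptor precursors, had a larger share and a smaller difference, 3477 and 3459 ppm against 3317 and 3305, or 0.070 ± 0.0020. Dmbx1, a homeodomain factor of developing brain and retina, was at 0.16, and GSC, an organiser homeodomain factor with the same preferred site, at 0.12.

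The score over these 8 motifs placed 61 of 98 (62.2%, Wilson 52.4 to 71.2) and 79 of 121 (65.3%, 56.5 to 73.2) proneural-high cells in the top 15% of their library. Among the other kept cells it placed 9.22% and 8.49% there. The intervals treat cells of a library as independent, and the score had an r of 0.56 and 0.47 with N, which chose the cells. Read the other way, 61 of 134 and 79 of 158 CRX/OTX-high cells were proneural-high. Of 7 other photoreceptor motifs 2 were higher and none was lower, against 22.9% and 20.7% of all tested motifs. PRDM1, a repressor that favours photoreceptor over bipolar fate in mouse, was higher at 0.044, and the rod factor NRL, at -0.024, was not called.

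TEAD motifs, read by the DNA-binding partners of the Hippo effectors YAP and TAZ in progenitors, were lower. All 4 were called, with a median of -0.067, and 20.7% of all tested motifs were called in that direction. These 4 calls are likewise not independent of one another. TEAD1 took 617 and 604 ppm in proneural-high cells, against 651 and 639 in the others, a difference of -0.075 ± 0.0039 (adjusted p 0.00069, edgeR). Only 12.2% and 10.7% of proneural-high cells exceeded the median TEAD1 share of the others. By the score over all 4, 1 of 98 and 2 of 121 proneural-high cells stood in the top 15% of their library, against 16.8% and 16.8% of the other cells.

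SOXB and SOXE motifs, bound by progenitor factors such as SOX2 and SOX9, were mixed: 4 of 8 were lower and 1 was higher. SOX8 fell by 0.092 and Sox1 by 0.069 on the log2 scale. Sox2 itself was at -0.00070, with an adjusted p of 0.72 (edgeR). SOX4 and Sox11, the SOXC factors of newborn neurons in mouse, were lower by 0.075 and 0.037, with 3 of 5 motifs of the SOXC and SOXD list called lower. Among the 6 VSX, RAX and LHX2/9 motifs of retinal progenitors, edgeR called 1 higher and none lower, with 3 at an unadjusted p under 0.05, while limma on the mean log2 share called 5 lower.

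RFX motifs, the patterns of winged-helix factors that control genes of cilia, were lower in all 5 cases, with a median of -0.067. The RFX list, the TGIF, PKNOX, MEIS and PBX list and the IRF list were drawn up after their values had been seen. RFX2 took 865 and 864 ppm in proneural-high cells, against 908 and 907 in the others, or -0.067 ± 0.0031 (adjusted p 0.00053, edgeR). These 5 patterns are near-identical and are close to 1 measurement.

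TALE homeodomain motifs were higher in all 10 cases, with a median of 0.057. TGIF2, a co-repressor of TGF-beta signalling, showed the highest difference of all tested motifs, 130 and 120 ppm against 116 and 106, or 0.18 ± 0.0092 (adjusted p 0.00068, edgeR). PKNOX2 and PKNOX1, partners of PBX factors, stood at 0.12 and 0.11. The 3 MEIS motifs, with patterns of progenitor homeodomain factors, were at 0.010, 0.021 and 0.0089. TGIF and PKNOX patterns carry the letters CAG, which can overlap an E-box as in the Neurod2 window, and these 4 motifs are not independent of N. The score over the 10 TALE motifs had an r of 0.53 and 0.48 with N across kept cells. The Snail-family and ID motifs, whose sites are E-boxes too, were higher in 4 of 5 cases, led by SCRT2, a neuronal repressor, at 0.081.

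ONECUT and CUX motifs, read by horizontal and ganglion cell factors, were higher in 4 of 5 cases, against 22.9% of all tested motifs. ONECUT1 took 374 and 378 ppm against 355 and 357, or 0.081 ± 0.0060 (adjusted p 0.0020, edgeR). Of 10 TFAP2 and PROX1 motifs of amacrine and horizontal cells, 6 were higher, among them TFAP2B at 0.038, and PROX1, at -0.067 with an adjusted p of 0.0504 (edgeR), was not called. EBF1, a ganglion cell motif outside the rule, took 216 and 208 ppm against 213 and 205. It was not called (0.022, adjusted p 0.066, edgeR), and neither was the other ganglion motif outside the rule.

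The E2F list was split and Notch motifs gave few calls, with both list medians close to 0. Of 8 E2F motifs 3 were higher and 1 was lower, with a median of 0.0090. Of 7 Notch motifs 2 were lower and none was higher, with a median of 0.0014. E2F4 and E2F6, read by repressors of cell cycle genes, were higher by 0.026 and 0.024, and E2F1, with 37.7 counts per proneural-high cell in replicate 1, was called lower at -0.11 ± 0.023 and is left out of the plot of motifs by library for its mean of 43.5 counts per kept cell. Of the 3 MYB motifs, read by factors of proliferating cells, 2 were higher, MYB at 0.028 and MYBL2, with 46.7 counts per kept cell, at 0.10. HEY1 and HEY2, Notch target repressors, were lower by 0.045 and 0.039, while RBPJ, the nuclear partner of Notch, was at 0.0040 and not called. INSM1, a zinc finger of neurogenic precursors, was lower by 0.039. Beyond counting error its coefficient of variation between cells was 6.06% and 9.47% in proneural-high cells, against 21.1% and 19.5% in the others. SP and KLF motifs of promoters were higher in 9 of 13 cases, with a median of only 0.012, but with every barcode found in both libraries left out 9 of 13 were called lower, with a median of -0.056. CTCF, a chromatin loop anchor, was at 0.0060 and not called.

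Single motifs outside these families completed the extremes. IRF9, the DNA-binding subunit of the interferon-activated complex, was higher at 0.17 ± 0.011, with 82.4 and 80.1 ppm against 72.9 and 71.8. The IRF list as a whole was split, with 3 of 9 motifs higher and 2 lower. Hoxa11, ATF4 and Foxo1 were higher by 0.12, 0.12 and 0.11. ZBTB7B, a zinc finger known from T cells, had the lowest value, 148 and 135 ppm against 165 and 161. Beyond counting error its coefficient of variation was 30.6% and 42.0% in proneural-high cells, against 87.0% and 89.5% in the others. Whether few cells carry the ZBTB7B difference was not tested. SRF and JUN, factors of growth and stress responses, were lower by 0.11 and 0.10. AP-1 motifs were lower in 8 and higher in 1 of 21 cases, against 20.7% and 22.9% of all tested motifs. Of 7 DLX and BARHL motifs of amacrine and ganglion cells 4 were lower and 1 was higher, and of 9 motifs of retinoid receptors 4 were lower and 3 higher.

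Lists for cells from outside the neural retina are set beside the 22.9% of all tested motifs called higher and the 20.7% called lower. Some of these lists depended on the setting. Of the microglial list 1 of 10 was higher and 2 were lower (1 when adjusted over the tested motifs alone). None of the 9 endothelial and erythroid motifs was called by edgeR, with 0 at an unadjusted p under 0.05, and none of the 4 MITF and TFE motifs of pigment epithelium, with 1. All 4 MITF and TFE motifs were above 0, with a median of 0.014, and 4 of 4 were called higher among cells of the middle depth range. By the score over these 4, 26.5% and 26.4% of proneural-high cells stood in the top 15% of their library, against 13.6% and 13.5% of the other cells. In the lens and mesenchyme list 2 of 5 were lower with edgeR and 4 of 5 with DESeq2, with limma or without TMM scaling. The part of such cells in the other results was not tested.

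The assumed identity of these cells as neurogenic precursors was set against these markers. The other proneural motifs were high, but they are linked to the rule. Among motifs outside the rule, CRX/OTX motifs were higher. Of 7 other photoreceptor motifs 2 were higher, near the 22.9% of all tested motifs, and NRL was not called. The CRX/OTX score had an r of 0.56 and 0.47 with N across kept cells, so it is not independent of N. For progenitors, TEAD motifs were lower, 4 of 8 SOXB and SOXE motifs were lower and 1 was higher, and Sox2 was not called. Of 6 VSX, RAX and LHX2/9 motifs 1 was higher and none was lower in the main comparison. The number lower depended on the setting, with 2 under DESeq2 and 3 without TMM scaling. With limma or in the middle range of depth, 5 were lower and none was higher. None was lower with the P cut at the top 15% or the N cut at the top 10%. Pax6 was lower at -0.059 (adjusted p 0.035, edgeR), the only call in its list of 5. With the deepest 5% of cells left out, that list had no call. The E2F list was split, and of 7 Notch motifs 2 were lower and none was higher. These markers were mixed, and the cells are named by their rule.

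Set against the 3 other corners of the same plane, the CRX/OTX and RFX differences were present each time. A fit over all 4 cell sets gave these comparisons, which share the proneural-high cells. CRX/OTX motifs were higher in 8 of 8 cases against POU4F-high-only cells, 6 of 8 against cells high for both and 8 of 8 against cells high for neither, with medians of 0.075, 0.039 and 0.073. RFX motifs were lower in 5 of 5 cases each time, with medians of -0.12, -0.035 and -0.058. Crx differed by 0.11 ± 0.012, 0.076 ± 0.013 and 0.14 ± 0.012, and RFX2 by -0.12 ± 0.0062, -0.035 ± 0.0064 and -0.057 ± 0.0062.

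**Figure D3:**
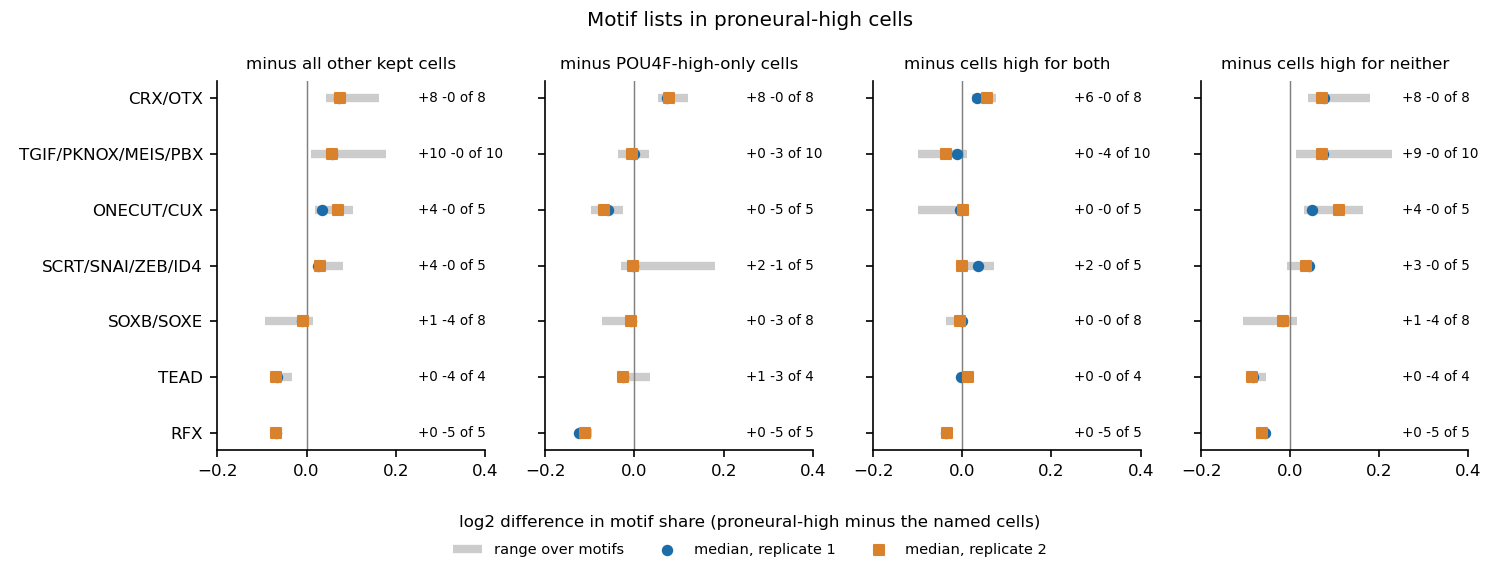
Log2 difference in motif share of 7 motif lists between proneural-high cells and, from left to right, all other kept cells, POU4F-high-only cells, cells high for both and cells high for neither. Circles and squares are list medians in replicates 1 and 2, grey bars span the motifs of a list, and the numbers at the right count motifs called higher (+) and lower (-). CRX/OTX lies right of 0 and RFX left of 0 in every panel, ONECUT/CUX changes side, and the near-0 medians of SOXB/SOXE and TGIF/PKNOX/MEIS/PBX in the second panel change sign without TMM scaling.

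Against POU4F-high-only cells, 84 motifs were higher and 134 lower (15.8% and 25.2%, together 41% of 532), but without TMM scaling the split was 133 higher and 83 lower. The median of all tested motifs was -0.0052 with that scaling and 0.0048 without it. The ganglion motifs outside the rule were both lower, EBF1 by 0.093 and ISL2, a factor of a ganglion cell subset, by 0.035. ONECUT and CUX motifs were lower in 5 of 5 cases, 4 without TMM scaling, with ONECUT1 at -0.064. REST, a repressor of neuronal genes, and INSM1 were lower by 0.060 and 0.062. MYBL1 was the highest called motif at 0.68 ± 0.12, but on a mean of only 7.51 counts per kept cell. Among motifs of at least 50 counts per kept cell, IRF9 was highest at 0.20, followed by SCRT2 and SCRT1 at 0.18 and 0.13, and ZBTB7B and JUN were lowest at -0.29 and -0.18. Progenitor homeodomain motifs were higher in 4 of 6 cases (3 when adjusted over the tested motifs alone), and 3 of 4 TEAD motifs were lower (2 without TMM scaling) while TEAD2 was higher by 0.036.

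Cells high for both scores were the nearest set. Here 26 motifs were higher (4.89%) and 27 lower (5.08%), together 9.96%, or 38 and 26 without TMM scaling, in sums over 36 and 37 cells. Crx was the highest called motif at 0.076. The 5 lowest included PKNOX2 at -0.099, JUN at -0.075 and TGIF2 at -0.066, and 4 of 10 TALE motifs were called lower. None of the 4 TEAD motifs and none of the 5 ONECUT and CUX motifs was called by edgeR, with 0 and 2 at an unadjusted p under 0.05. At an unadjusted p under 0.05 there were 143 motifs.

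Against cells high for neither score, 99 motifs were higher (18.6%) and 106 lower (19.9%), together 38.5%. TGIF2 was higher by 0.23, Dmbx1 by 0.18, CUX1 by 0.16 and ONECUT1 by 0.12. All 4 TEAD motifs were lower, with a median of -0.085. SOX8 fell by 0.10 and SRF by 0.13 on the log2 scale. EBF1 was higher by 0.050 (adjusted p 0.0037, edgeR) and REST by 0.027.

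The order of the sets differed between lists. On ONECUT1 and EBF1 the proneural-high cells lay between the POU4F-high-only cells, which were higher, and the cells high for neither, which were lower. On CRX/OTX they lay above both of these sets, and on RFX below both.

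Along N the CRX/OTX score rose late. In 10 equal bins of kept cells by N, the mean CRX/OTX score stayed between -0.035 and -0.0064 of its library mean over bins 1 to 7 of replicate 1 and reached 0.013, 0.045 and 0.090 in bins 8, 9 and 10. In replicate 2 the last 3 bins had 0.0021, 0.046 and 0.082. The other proneural motifs rose in every step of replicate 1, and are linked to N. TEAD was above its mean in bins 2 to 6 of both libraries and below it from bin 8, and RFX was highest in bin 7 (0.045 and 0.031) and lowest in bin 10 (-0.059 and -0.065). Bins 9 and 10 hold all the proneural-high cells, 29 and 69 in replicate 1 and 40 and 81 in replicate 2.

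**Figure D4:**
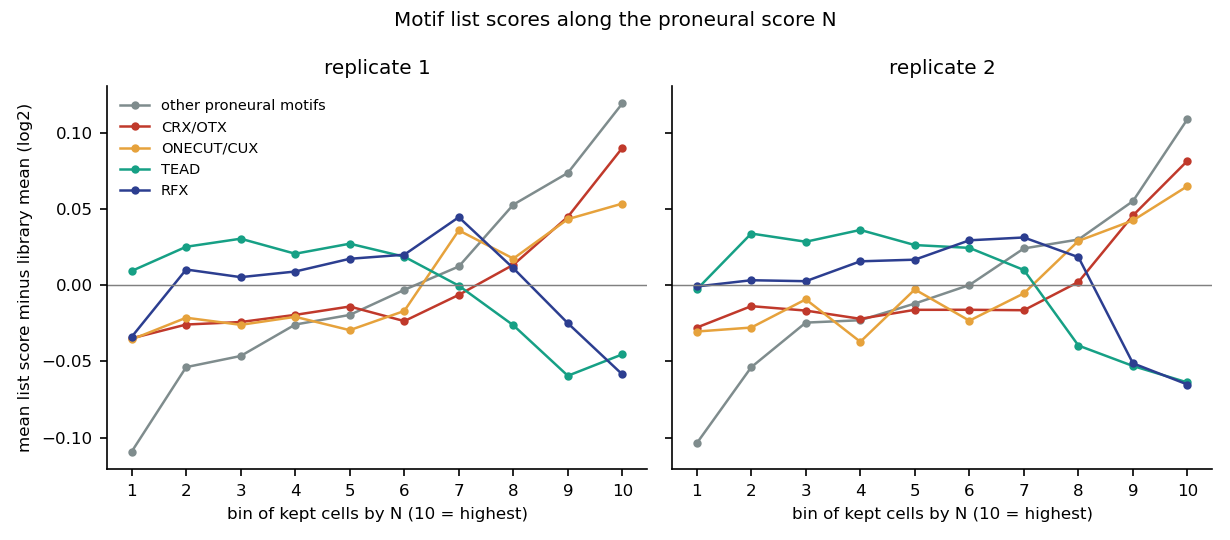
Mean score of 5 motif lists minus the library mean (log2, vertical axis) in 10 equal bins of kept cells ordered by N (horizontal axis, 89 cells a bin in replicate 1 and 105 or 106 in replicate 2). CRX/OTX climbs to 0.090 and 0.082 in bin 10, whereas RFX peaks at 0.045 and 0.031 in bin 7 and ends at -0.059 and -0.065.

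The proneural-high cells were not uniform in several of their CRX/OTX motifs. The spread of a motif between cells beyond counting error was given as a coefficient of variation (CV). This excess CV was compared between proneural-high and other kept cells for 524 tested motifs of at least 50 counts per cell. It was larger in proneural-high cells in both libraries for 50 and smaller in both for 306. Over all 579 motifs, those of the rule and linked to it included, the medians were 5.05% and 5.61% against 6.21% and 6.27%. Among the 524, the largest rise was in OTX2, at 4.29% and 4.30% against 2.46% and 2.44%, followed by PITX3, OTX1 and Crx. Of the 8 CRX/OTX motifs, Pitx1, GSC2 and Dmbx1 did not rise in both libraries, with Pitx1 at 3.15% and 3.06% against 3.06% and 3.21%. Crx itself varied by 13.9% and 14.7% among proneural-high cells, against 9.81% and 10.8% among the others. TEAD1 varied less, at 4.95% and 5.07% against 5.91% and 6.38%.

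Within the proneural-high cells other lists moved with the CRX/OTX score. Across 98 and 121 cells, which share a library and the cell total, its Pearson r was -0.60 and -0.69 with RFX, -0.44 and -0.62 with TEAD, -0.56 and -0.51 with SOXB and SOXE, and 0.41 and 0.48 with ONECUT and CUX. In the other kept cells the same pairs had -0.15 and -0.14, -0.13 and -0.093, -0.13 and -0.12, and 0.17 and 0.17. With the other proneural motifs the r was -0.16 and -0.26, against 0.33 and 0.17 in the other kept cells.

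The 61 and 79 CRX/OTX-high members carried the larger shifts of these lists. Relative to the median of all other kept cells their RFX score lay at -0.11 and -0.13 on the log2 scale and their TEAD score at -0.099 and -0.097. In the 37 and 42 remaining members RFX stood at -0.024 and 0.00091, and TEAD at -0.047 and -0.022. ONECUT and CUX were at 0.094 and 0.12 in the CRX/OTX-high members and at 0.018 and -0.0014 in the remaining ones. The TALE score was high in both, at 0.083 and 0.084 and at 0.068 and 0.089. Cells high for CRX/OTX outside the proneural-high set, 73 and 79 in number, had RFX at -0.067 and -0.049.

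**Figure D5:**
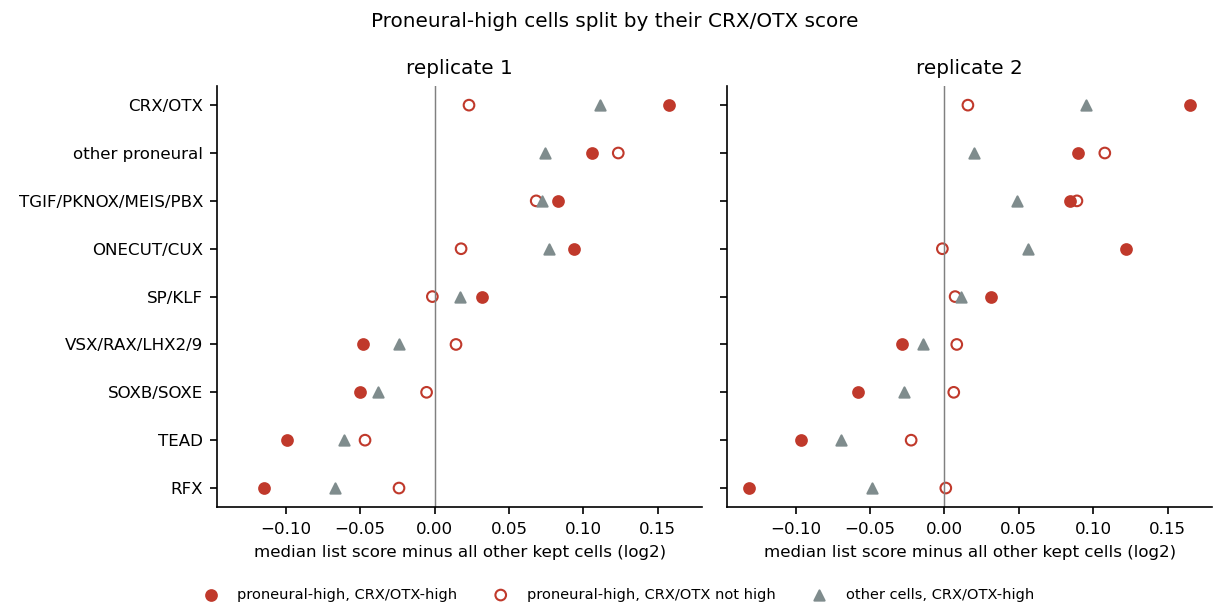
Median score of 9 motif lists minus that of all other kept cells (log2, horizontal axis), for proneural-high cells in the top 15% of the CRX/OTX score (filled circles, 61 and 79 cells), the remaining proneural-high cells (open circles, 37 and 42) and CRX/OTX-high cells outside the proneural-high set (triangles, 73 and 79), in replicates 1 and 2. RFX, TEAD and ONECUT/CUX of the open circles stay nearer to 0 than those of the filled circles, while the TGIF/PKNOX/MEIS/PBX list is high in both, as is the other proneural list, which is linked to the rule.

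This split was made on a score of the same counts, and 13 and 15 members lie within 0.02 of its border, so it is a description without a test. CRX/OTX-high members were also shallower, with median totals of 3073350 and 3323510 against 4122910 and 5019310 in the remaining members. The part of depth in the split was not tested. In the main comparison the CRX/OTX calls were 8 of 8 and the TEAD calls 4 of 4 also among cells of the middle depth range and after thinning every cell to 1000000 counts.

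The shallow copies of these barcodes in the opposite library are given as a description, since the rule used their totals to choose which copy was kept. A copy of a proneural-high barcode had a median total of 60507 counts for those chosen in replicate 1 and 31846.5 for those chosen in replicate 2, or 1.85% and 0.823% of the kept cell. Copies of the other kept cells had 61578 and 30622 counts. NEUROD1 was higher in summed copies of proneural-high barcodes by 0.39 and 0.37 on the log2 scale, Crx by 0.15 and 0.25 and OTX2 by 0.090 and 0.078. TEAD1 lay at -0.10 and -0.11 and RFX2 at -0.056 and -0.080. Of the 8 CRX/OTX motifs, GSC2 went the other way in 1 library, at -0.032 and 0.070. Across 524 tested motifs of at least 50 counts per kept cell, the log2 differences of the copies had an r of 0.51 and 0.49 with those of the kept cells. Whether copies hold the same fragments as the kept cells was not tested, so they are no independent check. With every barcode of both libraries left out, 2 and 14 proneural-high cells remained, and 3 motifs were called higher and 20 lower. TEAD1 then stood at 0.018, on the other side of 0 and not called.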

How the data were processed

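Counts per motif and cell barcode were deposited by the authors as sparse matrices for mm10. Per the file headers the software version was 1.1.0, and Cell Ranger is named in the submitters' processing notes. How peaks were called is not given in the sources used here. A barcode total is a sum over motifs, so a cut in a peak with many motifs counts many times and intervals cover counting error only.

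Counts were summed per library and cell set and tested with edgeR 4.0.16 in R 4.3.3 (TMM, quasi-likelihood F test, library as a block, Benjamini-Hochberg over all 579 motifs, those of the rule and linked to it included). The block is real, since both sums of a library come from it, and 1 residual degree of freedom remains (3 with 4 sets). Dispersions were held at or above 0.00011, because edgeR's deviance is inaccurate below that for such large sums. The fit was tested on simulated data. Of 579 motifs, 7 form the rule and 40 were linked to it by list or by a correlation above 0.7.

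Named motifs are the 7 of the rule, the other proneural ones and up to 4 of largest size per list. Also named are the 12 highest and 12 lowest called (5 and 5 in the other comparisons). These had at least 50 counts per kept cell and the same sign in both libraries. Other list members are named after their values were seen. A list score is the mean log2 share, after adding 0.5 counts. Members and lists were chosen with earlier results of these data known. Alternatives used DESeq2 1.42.0, limma 3.58.1 and other cell filters and cuts. Some motifs are not reported here.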

Additional observations from a re-analysis of the deposited data

How the results depend on the processing

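All 24 motifs plotted by library were called in the same direction under 12 of the 16 alternatives run with a test. The exceptions were 23 with the P cut at the top 35%, 21 in the middle range of depth, 2 with barcodes of both libraries left out, where 2 and 14 proneural-high cells remained, and 0 without the replicate block. Each pair of sums shares its library, and calls lost without the block do not show a weaker effect. Counts of called motifs that moved by over 1.5 times came from 4 alternatives. With barcodes of both libraries left out, 3 motifs were higher and 20 lower, and 77 reached 0.1 on the log2 scale. Without the replicate block, 1 was higher and 3 were lower against all other kept cells, 8 and 21 against POU4F-high-only cells, 0 and 2 against cells high for both (edgeR, with 22 higher at an unadjusted p under 0.05), and 10 and 13 against cells high for neither. Without TMM scaling, 175 were lower against all other kept cells, and 133 were higher and 83 lower against POU4F-high-only cells. With limma on mean log2 shares, 169 were lower. Among the 48 motifs named against all other kept cells, signs changed, with no call in the new direction, for TEAD1 (0.018), TFAP2B (-0.084), PROX1 (0.015), E2F4 (-0.024), E2F6 (-0.024) and RBPJ (-0.0073) with shared barcodes left out, for NRL (0.0056) in the middle range of depth, for Sox2 (8.05e-05) and CTCF (-0.0010) with N from NEUROD2 and Atoh1, and for RBPJ (-4.27e-05) with the P cut at the top 15%. The cause was not tested. With shared barcodes left out, the SP and KLF list turned from 9 higher to 9 of 13 called lower, and the core promoter list from 3 higher to 1 of 6 lower. Adjusting over the 532 tested motifs alone, chosen after seeing the data, gave 122 higher and 109 lower against all other kept cells, and the 24 plotted motifs were all called. Leaving out either replicate turned the sign of none of these 48 motifs, as values with no test. The 24 plotted among them had been picked for the same sign in both libraries. Sums of counts are deep, but 2 libraries leave 1 residual degree of freedom, and motifs of few counts per cell, such as E2F1, carry the widest counting error per cell.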
